A study of Mus musculus with 6 samples.

Results

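The BCL2 family decides whether a cell keeps its mitochondria intact or releases the proteins that start apoptosis. Pro-survival members (Bcl2, Bcl2l1, Mcl1, Bcl2l2) hold the pore-forming members Bax and Bak1 in check, and BH3-only members (Bcl2l11, Bid, Bad, Bbc3) tip the balance towards death by binding into a groove of the pro-survival proteins or by activating Bax and Bak1. In T cells, Bcl2 and Mcl1 keep naive cells alive, Bcl2l1 is known as the member induced by activation through CD28, and Bcl2l11 (BIM) drives the death of T cells that lose cytokine support. The 10 genes described here were chosen by symbol, 10 of the 23091 symbols in the gene tables, and all 10 had exactly 1 entry in each table.

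RNA was sequenced from 6 groups of mouse CD4 T cells, each a single library. The groups were naive NLRP3KO and naive WT cells, NLRP3KO and WT cells at day 3 of T helper type 2 (Th2) culture, and NLRP3KO and WT cells at day 6. NLRP3 is the sensor of an inflammasome, and the mice were NLRP3-/- or wild-type, of strain C57/Bl6j and aged 7 weeks. Naive CD4 T cells came from spleen and nodes, and the Th2 cells were grown with CD3 and CD28 antibodies as plate coating, 10 ng/ml IL-4 and an antibody blocking interferon gamma. The labels do not say how many mice gave each library, and no library has a replicate. Each difference within a stage or between stages is therefore between 2 libraries, has no replicate check and carries no p-value, and the 1 test made is of genotype over the 3 stages. Purified mRNA went into the 2 naive libraries, and RNA depleted of ribosomal RNA into the 4 Th2 libraries. Culture and library kind therefore cannot be told apart in any comparison of Th2 with naive cells.

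Levels are FPKM, fragment values normalized to transcript length and library size, printed as deposited with the deposited confidence bounds. Depth limited what could be seen. Estimated from the spacing of the bounds, the naive libraries held 1388683 (NLRP3KO) and 1633016 (WT) fragments on genes, the day 3 libraries 24939 (NLRP3KO) and 29492 (WT), and the day 6 libraries 5431 (NLRP3KO) and 30495 (WT). Rn45s, the ribosomal RNA precursor, had FPKM of 7818.59 in naive NLRP3KO and 10783.4 in naive WT. In the Th2 libraries it had 63242.5 in NLRP3KO day 3, 57644.8 in WT day 3, 67265.8 in NLRP3KO day 6 and 53218 in WT day 6. Its part in the depth and in the levels of other genes was not tested. All 10 members were above 0 in both naive libraries, 7 in NLRP3KO and 9 in WT at day 3, and 5 in NLRP3KO and 9 in WT at day 6. Nlrp3 was listed at 0 in all 3 NLRP3KO libraries and in both WT Th2 libraries, and at 0.0569 in naive WT, below the 0.163 that 3 fragments would give, so these data do not allow a check of the knockout. Of 7 T cell markers found, at least 5 were above 0 in every library. Cd3d was at 0 in NLRP3KO day 3, and Cd3g and Lck were at 0 in NLRP3KO day 6. Their summed FPKM was 1768 in naive NLRP3KO and 1349 in naive WT, 56.8 in NLRP3KO day 3 and 41.9 in WT day 3, and 38.5 in NLRP3KO day 6 and 63.6 in WT day 6. Markers of B cells, CD8 cells, myeloid cells, NK cells and red cells were above 0 in both naive libraries, except Cd14 and Klra8 in naive NLRP3KO and Ncr1 in naive WT, which were listed at 0. In the Th2 libraries all of them were at 0 except B cell markers in WT day 3, with a summed FPKM of 1.57. Red cell markers summed to 455 in naive NLRP3KO and 177 in naive WT, and B cell markers to 35.0 in naive NLRP3KO and 78.5 in naive WT. Their part in the naive values below was not tested. In such bulk RNA, fewer cells of a type and less RNA per cell cannot be told apart.

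All 10 members share the BH3 domain, the helix through which the death members bind the groove of the survivors, and its coding sequence is shown because it is the feature that joins genes of opposite function. The windows are 42 coding bases read 5′ to 3′ from GENCODE transcripts on build GRCm38, with 3 codons of the BH3 core in capitals, for residues 1, 5 and 6.
Bcl2: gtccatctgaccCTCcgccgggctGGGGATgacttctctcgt
Bcl2l1: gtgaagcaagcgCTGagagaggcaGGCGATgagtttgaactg
Mcl1: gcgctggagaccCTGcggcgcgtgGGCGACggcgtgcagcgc
Bcl2l2: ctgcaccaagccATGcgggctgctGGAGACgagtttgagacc
Bax: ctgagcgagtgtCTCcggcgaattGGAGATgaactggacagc
Bak1: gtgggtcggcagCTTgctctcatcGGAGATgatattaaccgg
Bcl2l11: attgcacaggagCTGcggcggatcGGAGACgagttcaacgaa
Bid: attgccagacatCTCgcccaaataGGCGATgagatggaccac
Bad: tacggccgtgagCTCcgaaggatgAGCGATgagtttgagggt
Bbc3: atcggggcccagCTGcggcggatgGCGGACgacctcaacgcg
Residue 1 is leucine in 9 members and methionine in Bcl2l2. Residue 5 is glycine in 8 members, serine in Bad and alanine in Bbc3, and residue 6 is aspartate in all 10.

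**Figure D1:**
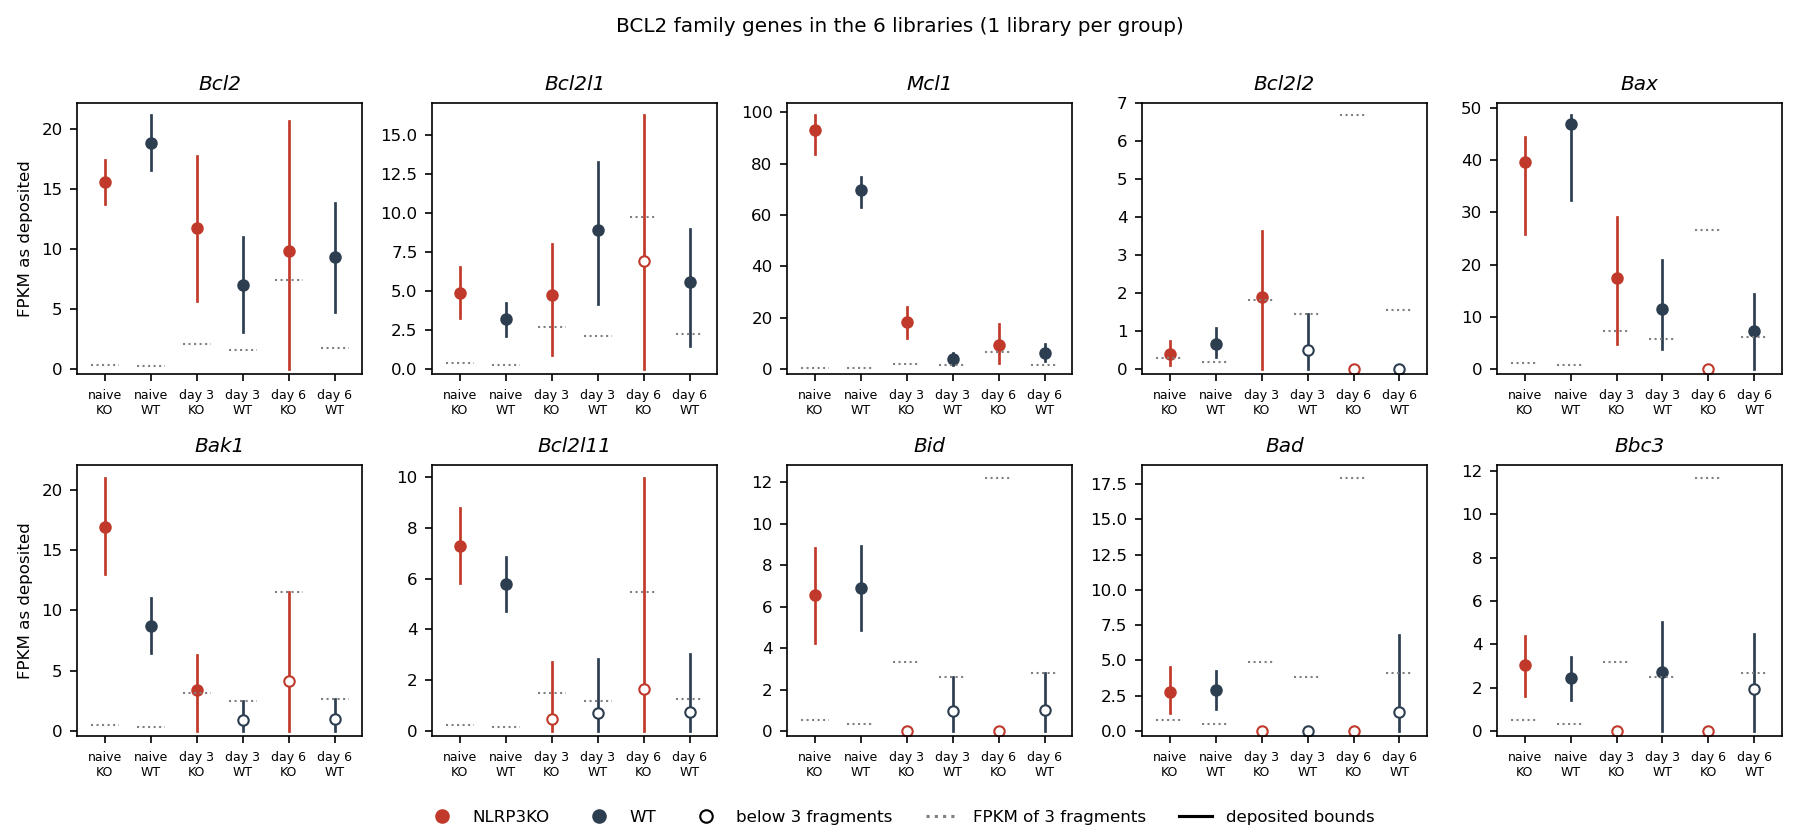
Deposited FPKM (y axis, linear, own scale per panel) of the 10 genes in the 6 libraries, NLRP3KO in red and WT in dark blue, with lines for the deposited bounds, dotted marks for the FPKM that 3 fragments would give and open points below that mark. Mcl1 stands at 18.3 in NLRP3KO day 3 and 3.96 in WT day 3, and every BH3-only value in a Th2 library rests on at most 3.24 fragments.

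Mcl1 encodes a short-lived pro-survival protein that T cells need at all stages (chromosome 3, 95462643 to 95467101; here and for the other members, mm9 positions from the gene tables). It had FPKM of 93.0 (bounds 83.6 to 98.8) in naive NLRP3KO and 69.9 (63.2 to 74.7) in naive WT. At day 3 it had 18.3 (12.1 to 24.1) in NLRP3KO and 3.96 (1.42 to 6.17) in WT, and at day 6 it had 9.23 (2.21 to 17.7) in NLRP3KO and 6.37 (3.06 to 9.69) in WT. The day 3 libraries stood apart with no overlap of bounds, while the day 6 bounds overlapped. The naive bounds did not overlap as deposited but did after the scaling described below. The values rested on about 1010 fragments in naive NLRP3KO and 1115 in naive WT, 30.3 in NLRP3KO day 3 and 8.35 in WT day 3, and 4.18 in NLRP3KO day 6 and 12.5 in WT day 6. Mcl1 ranked above 97.4% of the genes above 0 in naive NLRP3KO and 97.0% in naive WT, and above 97.0% in NLRP3KO day 3 and 85.5% in WT day 3.

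Bcl2, the founding pro-survival member (chromosome 1, 108434756 to 108610867), had FPKM of 15.6 (bounds 13.8 to 17.4) in naive NLRP3KO and 18.8 (16.6 to 21.1) in naive WT. At day 3 it had 11.7 (5.65 to 17.8) in NLRP3KO and 6.99 (3.03 to 11.0) in WT, and at day 6 it had 9.79 (0 to 20.6) in NLRP3KO and 9.32 (4.76 to 13.8) in WT. Its bounds overlapped between genotypes at all 3 stages as deposited. Bcl2l1, which encodes BCL-XL (chromosome 2, 152606404 to 152657418), had FPKM of 4.84 (3.25 to 6.50) in naive NLRP3KO and 3.19 (2.12 to 4.24) in naive WT. At day 3 it had 4.73 (0.887 to 7.99) in NLRP3KO and 8.93 (4.19 to 13.3) in WT, and at day 6 it had 6.93 (0 to 16.3) in NLRP3KO and 5.58 (1.50 to 9.0) in WT. The WT day 3 library held the highest value and naive WT the lowest, and the genotypes overlapped at each stage. The NLRP3KO day 6 value rested on 2.13 fragments, fewer than 3. Bcl2l2, which encodes BCL-W (chromosome 14, 55502262 to 55507071), was low throughout. It had FPKM of 0.392 in naive NLRP3KO and 0.666 in naive WT, 1.90 in NLRP3KO day 3 and 0.499 in WT day 3, and was listed at 0 in both day 6 libraries.

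The pore-forming genes were clearly detected in naive cells and thinly in Th2 cells. Bax, whose protein perforates the outer mitochondrial membrane (chromosome 7, 52717065 to 52722268), had FPKM of 39.7 (bounds 25.9 to 44.4) in naive NLRP3KO and 46.9 (32.5 to 48.6) in naive WT. At day 3 it had 17.4 (4.84 to 29.0) in NLRP3KO and 11.4 (3.81 to 20.9) in WT, and at day 6 it was listed at 0 in NLRP3KO and stood at 7.32 (0 to 14.3) in WT. The 0 in NLRP3KO day 6 is not informative, since 3 fragments on Bax would give 26.6 there, above the WT value. Bak1, which forms the same kind of pore (chromosome 17, 27156757 to 27165571), had FPKM of 16.9 (13.0 to 21.0) in naive NLRP3KO and 8.75 (6.45 to 11.0) in naive WT. Its Th2 values rested on about 3 fragments in NLRP3KO day 3, with an FPKM of 3.40, and on about 1 fragment in WT day 3 and both day 6 libraries. Its entry overlaps that of Ggnbp1, so fragments of these genes may be mixed.

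The BH3-only genes were moderate in naive cells and rested on few fragments in culture, at most 3.24 for any of them in a Th2 library. Bcl2l11 (chromosome 2, 127951774 to 127988283) had FPKM of 7.31 (bounds 5.84 to 8.78) in naive NLRP3KO and 5.80 (4.74 to 6.87) in naive WT, 0.454 in NLRP3KO day 3 and 0.714 in WT day 3, and 1.66 in NLRP3KO day 6 and 0.767 in WT day 6. Each of its Th2 values rested on fewer than 2 fragments. Bid, whose protein links death receptors to mitochondria (chromosome 6, 120843137 to 120866838), had 6.57 in naive NLRP3KO and 6.89 in naive WT. It was at 0 in both NLRP3KO Th2 libraries and stood at 0.949 in WT day 3 and 1.02 in WT day 6. Bad, a BH3-only member regulated by growth factor signalling (chromosome 19, 7016345 to 7026383), had 2.78 in naive NLRP3KO and 2.91 in naive WT. In culture only WT day 6 had a value above 0, of 1.36. Its entry overlaps that of Gpr137. Bbc3, which encodes PUMA, a target of p53 (chromosome 7, 16894932 to 16903683), had 3.04 in naive NLRP3KO and 2.43 in naive WT. It was listed at 0 in both NLRP3KO Th2 libraries, against 2.71 (0 to 5.03) in WT day 3 and 1.94 in WT day 6. Over the 4 BH3-only genes, about 165 fragments were seen in naive NLRP3KO and 211 in naive WT, 0.913 in NLRP3KO day 3 and 6.15 in WT day 3, and 0.914 in NLRP3KO day 6 and 6.04 in WT day 6.

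Within a library, levels of genes can be set against each other per length without any scaling between libraries. Mcl1 made up 81.7% of the summed pro-survival FPKM in naive NLRP3KO and 75.5% in naive WT, 49.9% in NLRP3KO day 3 and 19.4% in WT day 3, and 35.6% in NLRP3KO day 6 and 29.97% in WT day 6. Bcl2l1 made up 4.25% in naive NLRP3KO and 3.44% in naive WT, 12.9% in NLRP3KO day 3 and 43.8% in WT day 3, and 26.7% in NLRP3KO day 6 and 26.2% in WT day 6. Mcl1 was thus the leading pro-survival transcript in naive cells and in NLRP3KO day 3, Bcl2l1 in WT day 3, and Bcl2 in both day 6 libraries, with 37.7% in NLRP3KO and 43.8% in WT. In WT day 3 and in both day 6 libraries the bounds of Bcl2, Bcl2l1 and Mcl1 overlapped, and in NLRP3KO day 3 those of Mcl1 and Bcl2 did, so the leading gene is not resolved in any Th2 library.

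The ratio of Mcl1 to Bcl2 FPKM was 5.96 (95% interval 5.02 to 7.13) in naive NLRP3KO and 3.71 (3.25 to 4.26) in naive WT. It was 1.56 (0.836 to 3.00) in NLRP3KO day 3 and 0.567 (0.208 to 1.46) in WT day 3, and 0.943 (0.180 to 5.04) in NLRP3KO day 6 and 0.684 (0.300 to 1.52) in WT day 6. Both naive intervals lay above those of NLRP3KO day 3, WT day 3 and WT day 6, and the genotypes overlapped within each day of culture. The ratio of Bcl2l1 to Mcl1 FPKM was 0.259 (0.0819 to 0.658) in NLRP3KO day 3 and 2.25 (0.871 to 6.17) in WT day 3, intervals that did not overlap. In the naive libraries it was 0.0520 (0.0362 to 0.0726) in NLRP3KO and 0.0456 (0.0315 to 0.0639) in WT. At day 6 it was 0.751 (0.0752 to 4.95) in NLRP3KO and 0.875 (0.303 to 2.35) in WT, with wide overlap. These are exact conditional intervals on the estimated fragments. They hold counting error alone, the libraries being PCR amplified, and set library against library, not condition against condition. How often other pairs of genes have intervals apart at day 3 was not computed. The scaled ratio of Bcl2l1 alone between the day 3 libraries, given below, had an interval that included 1.

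**Figure D2:**
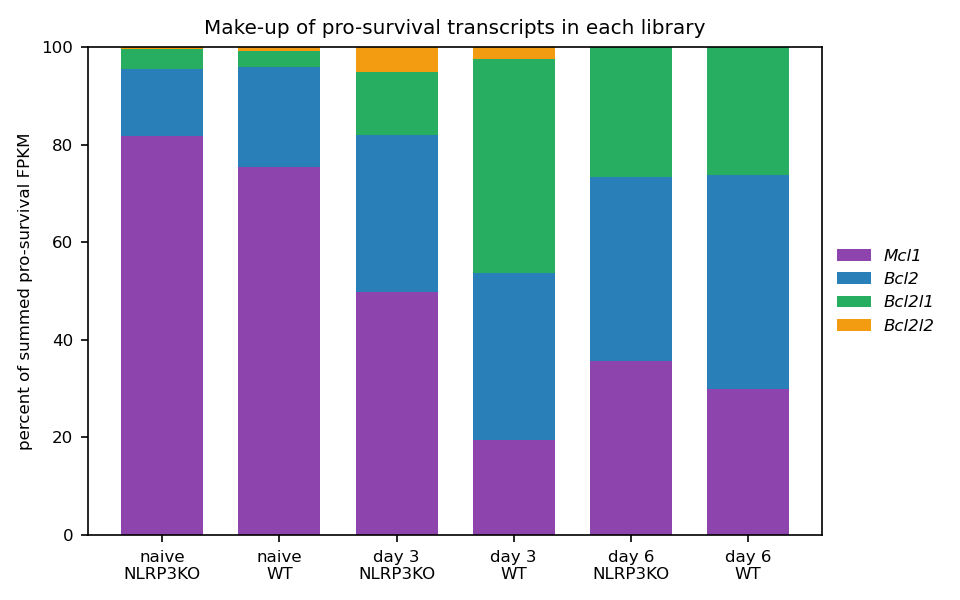
Share of the summed pro-survival FPKM (y axis, percent, from 0 to 100) taken by each of the 4 pro-survival genes in each library, 1 stacked bar per library. Mcl1 takes 49.9% of the bar in NLRP3KO day 3 and 19.4% in WT day 3, while Bcl2l1 takes 12.9% in NLRP3KO day 3 and 43.8% in WT day 3.

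For comparisons between libraries, FPKM were scaled by the median ratio over genes found in all 6, and a log2 difference was taken on scaled FPKM plus 1. A gene was kept where either library had FPKM 1 or more, and 2-fold differences were counted. The ratios given with an interval are of scaled FPKM without the added 1.

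In naive cells, no member kept was 2-fold apart between genotypes, while the counting intervals of Bcl2, Bax and Bak1 excluded 1. The share of all genes whose interval excludes 1 was not computed, so these intervals are not a result about the family. Of the 9 members kept, 0 were at least 2-fold apart, where 0.210% of all 9985 kept genes reached a 2-fold higher value in NLRP3KO and 2.32% a 2-fold lower one. The members' median log2 difference was -0.057, against 0.013 over all genes kept. Mcl1 had a scaled ratio of NLRP3KO to WT of 0.993 (95% interval 0.911 to 1.08), the tightest interval of any member, and Bcl2l11 one of 0.941 (0.709 to 1.25). Bcl2 was lower in NLRP3KO, with a scaled ratio of 0.618 (0.503 to 0.758), a log2 difference of -0.57 and scaled bounds that did not overlap, although the deposited bounds did. Bounds stood apart and lower in 8.78% of 9852 genes and apart and higher in 6.31%, so 1 member of 9 is near the background. Bax had a ratio of 0.632 (0.493 to 0.806) with overlapping bounds. The Bax FPKM lay nearer its upper than its lower bound in both naive libraries, so its fragments and this interval are less certain. Bak1 had a ratio of 1.45 (1.07 to 1.96), with overlapping scaled bounds, although its deposited bounds did not overlap.

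At day 3, 3 of the 7 members kept had NLRP3KO values at least 2-fold higher (Mcl1, Bcl2l2 and Bak1) and 2 at least 2-fold lower (Bcl2l1 and Bbc3). Of all 5749 kept genes 25.4% reached a 2-fold higher value and 27.2% a 2-fold lower one, and with so few members and such a background these counts are not a result about the family. The members' median log2 difference was 0.53, against 0.11 over all genes kept.

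Of the 7 members kept, Bbc3 was listed at 0 in NLRP3KO, so its bounds were not compared. Among the others, Mcl1 was the 1 member whose bounds did not overlap between the day 3 libraries. Its log2 difference was 1.90, and its scaled ratio of NLRP3KO to WT was 4.06 (95% interval 1.84 to 10.1). Bounds stood apart and higher in NLRP3KO for 1.33% of the 3773 kept genes above 0 in both libraries, and apart and lower for 0.954%. By log2 difference Mcl1 was number 27 of those 50 higher genes. Among the 176 genes with at least 30 fragments over both libraries it ranked number 5 by log2 difference. Of these genes 11.4% were at least 2-fold higher and 11.9% at least 2-fold lower. Mcl1 reached that minimum through NLRP3KO, with 30.3 fragments there and 8.35 in WT, so this rank describes the gene and adds no support.

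The other day 3 differences rested on few fragments. Bcl2l1 pointed the other way, with a log2 difference of -1.01 and a scaled ratio of 0.467, but its interval of 0.135 to 1.37 included 1. Bcl2l2 and Bak1 each had a ratio of 3.36 from about 3 fragments in NLRP3KO and 1 in WT, with intervals of 0.287 to 154 and 0.300 to 139. Bcl2 had a ratio of 1.48 (0.679 to 3.29) and Bax one of 1.34 (0.392 to 4.80), both intervals including 1. Bbc3 was listed at 0 in NLRP3KO and at 2.71 in WT, a value of 3.24 fragments, and 3 fragments would have given 3.19 in NLRP3KO, so no difference was detectable at this depth. With FPKM as deposited, Bcl2l1 and Bcl2l2 no longer reached 2-fold, with log2 differences of -0.79 and 0.95.

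**Figure D3:**
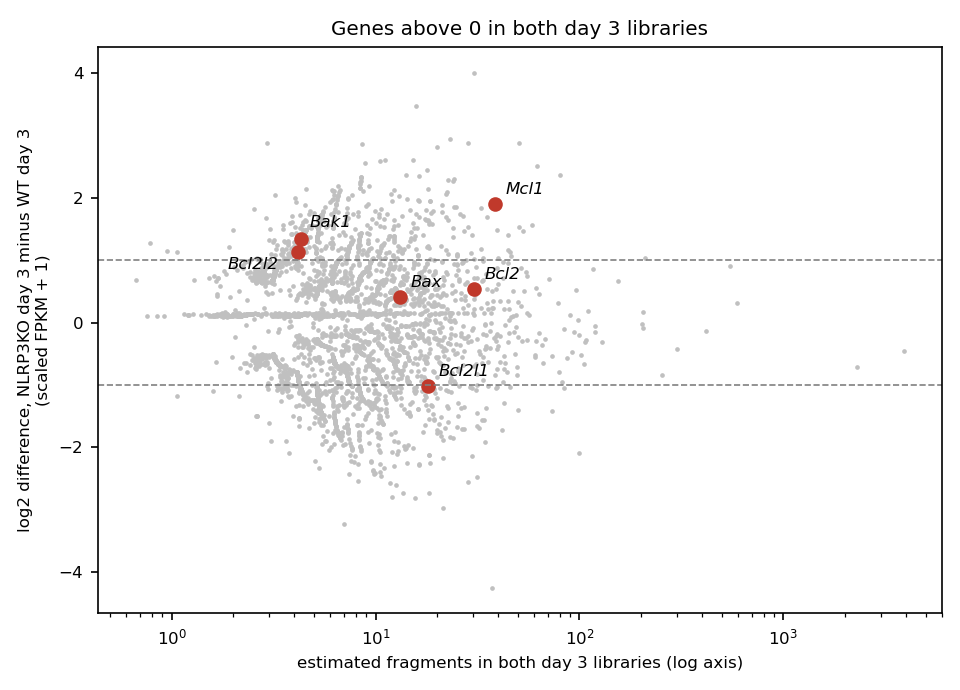
Log2 difference of scaled FPKM plus 1, NLRP3KO day 3 minus WT day 3 (y axis), against the estimated fragments in both libraries together (x axis, log scale), 1 point per kept gene above 0 in both, 3762 genes without small RNAs, with the BCL2 family genes named. The spread is widest at middle depths, and Mcl1 lies at 38.6 fragments and a log2 difference of 1.90, near the upper edge of genes of like depth.

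At day 6 the NLRP3KO library held too few fragments to set most members against WT. Of the 9 members kept, 1 was at least 2-fold higher in NLRP3KO (Bak1) and 4 at least 2-fold lower (Bax, Bid, Bad and Bbc3), where 20.9% of all 5336 kept genes reached a 2-fold higher value and 53.8% a 2-fold lower one. Of the members 0 had bounds apart, against 0.459% (higher) and 1.65% (lower) of 2178 genes above 0 in both libraries. All 4 lower members were listed at 0 in NLRP3KO, and for each of them the FPKM of 3 fragments there was above the WT value. Bak1 rested on about 1 fragment in each library. Bcl2 had a scaled ratio of 0.933 (0.225 to 2.90), Bcl2l1 one of 1.10 (0.124 to 5.49) and Mcl1 one of 1.29 (0.314 to 4.13). All 3 intervals included 1, and the Mcl1 interval also included the day 3 ratio of 4.06.

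**Figure D4:**
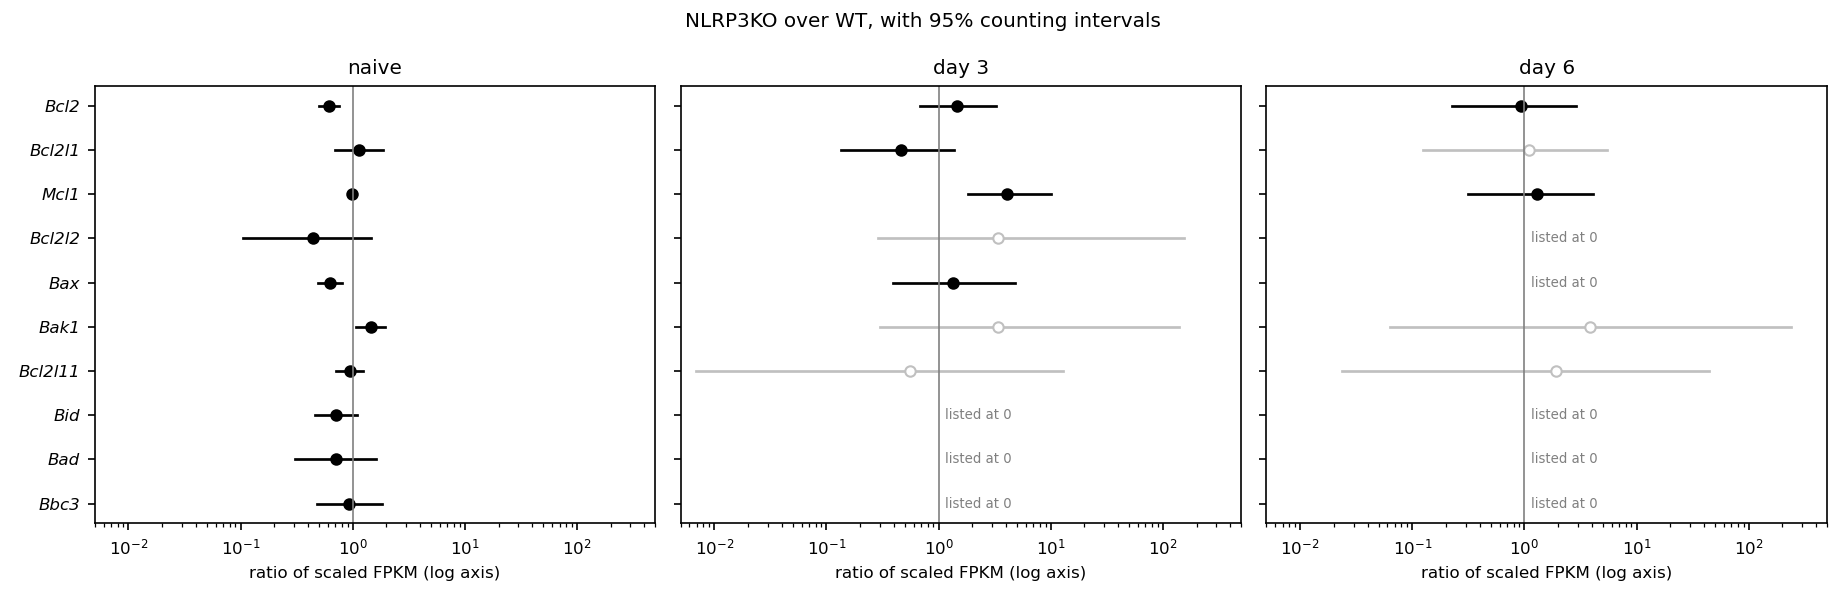
Ratio of scaled FPKM, NLRP3KO over WT (x axis, log scale), for each member in naive cells, at day 3 and at day 6, with 95% counting intervals as lines and open grey points where 1 of the libraries had fewer than 3 fragments. Among day 3 ratios the Mcl1 interval of 1.84 to 10.1 lies wholly above 1, and no day 6 interval excludes 1.

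Against naive cells, Bcl2l1 and Bcl2 took a larger place in cultured cells of both genotypes on the scaled values. In WT, 3 of the 9 members kept were at least 2-fold higher at day 3 than in naive cells (Bcl2, Bcl2l1 and Bbc3), where 9.99% of 9562 genes were, and 1 was at least 2-fold lower (Mcl1), where 31.3% were. In NLRP3KO, 4 of the 10 members kept were at least 2-fold higher (Bcl2, Bcl2l1, Bcl2l2 and Bax), where 10.8% of 10048 genes were, and 1 was at least 2-fold lower (Bid, listed at 0), where 32.1% were. These directions depend on the scaling. With FPKM as deposited, the naive libraries read much higher for most genes, and 1 member was higher and 7 were lower at day 3 in each genotype.

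Bcl2l1 had the largest scaled ratio of day 3 to naive in WT, 17.2 (8.30 to 33.5), with bounds apart and higher, as in 4.82% of 6085 genes. In NLRP3KO the ratio was 7.09 (2.26 to 17.7), with overlapping bounds. As deposited, the WT log2 difference was still 1.24, and the NLRP3KO one was -0.028. Bcl2 had a ratio of day 3 to naive of 5.45 (3.11 to 8.99) in NLRP3KO, with bounds apart and higher, as in 4.65% of 5873 genes, and of 2.28 (1.20 to 3.96) in WT, with overlapping bounds. As deposited, its log2 differences turned to -0.39 in NLRP3KO and -1.31 in WT, and with upper quartile scaling the WT one was 0.57.

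Mcl1 had a scaled ratio of day 3 to naive of 1.42 (0.958 to 2.04) in NLRP3KO and 0.348 (0.153 to 0.679) in WT. The WT bounds stood apart and lower, as in 10.2% of genes, and the NLRP3KO bounds overlapped. The log2 differences were 0.49 in NLRP3KO and -1.41 in WT, and as deposited they were -2.29 in NLRP3KO and -3.84 in WT. The deposited values were thus lower at day 3 in both genotypes, and on either scale the NLRP3KO value lay above the WT one. Bax had a ratio of 3.19 (1.27 to 6.74) in NLRP3KO and 1.50 (0.544 to 3.33) in WT. Bbc3 had a ratio of 6.86 (1.42 to 22.1) in WT from 3.24 fragments at day 3, and was listed at 0 in NLRP3KO day 3.

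**Figure D5:**
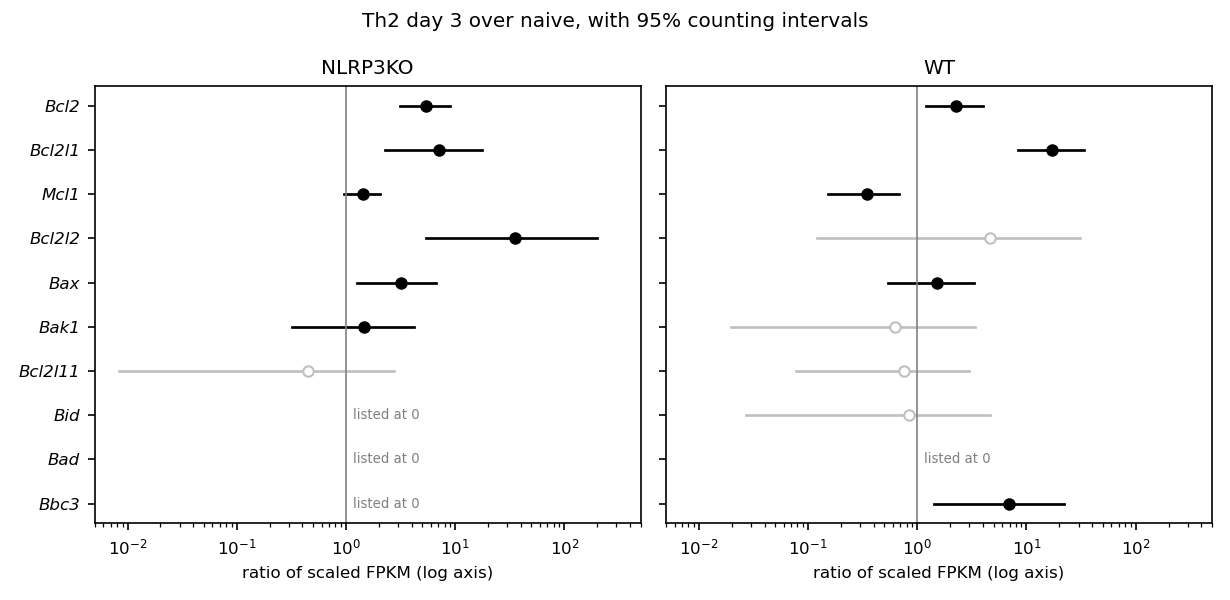
Ratio of scaled FPKM, day 3 over naive (x axis, log scale), for each member in NLRP3KO and in WT, with 95% counting intervals as lines and open grey points where 1 of the libraries had fewer than 3 fragments. Bcl2l1 lies at 7.09 in NLRP3KO and 17.2 in WT, and Mcl1 at 1.42 in NLRP3KO and 0.348 in WT.

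With stage as a block, the genotype effect over the 6 libraries was tested in limma across 10542 genes, a test chosen after the values were seen. At adjusted p under 0.05, 0.00% were higher in NLRP3KO and 0.00% lower, and 0 of the 10 members passed. At unadjusted p under 0.05, 7 genes were higher and 131 lower, and 0 of them were members. Mcl1 had a log2 difference of 0.74 (SE 0.54, adjusted p = 0.750 in limma) and was above WT at day 3 and day 6 but not in naive cells. The day 6 sign turned with upper quartile scaling, and the naive sign with FPKM as deposited and with scaling by fragments. Bak1 had 1.08 (SE 0.46) and was above WT at all 3 stages, while Bid had -1.13 (SE 0.47) and Bbc3 -1.64 (SE 0.69), both below WT at all 3, and each had an adjusted p of 0.750 in limma. Bid and Bbc3 were listed at 0 in both NLRP3KO Th2 libraries, where 3 fragments would have given more than the WT value. In naive cells Bbc3 had -0.043, which turned to 0.24 with FPKM as deposited and to 0.0012 with scaling by fragments. The fit has 2 residual degrees of freedom and takes an equal genotype effect at each stage, and the zeros of the shallow Th2 libraries enter as values.

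Between day 6 and day 3, little could be resolved. In WT, 1 of 7 members kept was at least 2-fold higher at day 6 (Bad, about 1 fragment against 0) and 0 were lower, where 24.1% of 5592 genes were higher and 20.2% lower. Bounds stood apart for 0 members, and for 0.251% (higher) and 0.502% (lower) of 3985 genes. The WT ratios of day 6 to day 3 were 1.46 (0.560 to 4.01) for Mcl1, 1.21 (0.548 to 2.71) for Bcl2 and 0.566 (0.196 to 1.51) for Bcl2l1, and all 3 intervals included 1. In NLRP3KO, 1 of 7 was at least 2-fold higher (Bcl2l11, under 1 estimated fragment in each library) and 3 were lower (Mcl1, Bcl2l2 and Bax), where 21.0% of 5207 genes were higher and 51.8% lower. Bounds stood apart for 0 members here too, and for 0.138% (higher) and 0.734% (lower) of 2181 genes. Mcl1 had a ratio of 0.461 (0.122 to 1.28), and its log2 difference of -1.07 became -0.91 with FPKM as deposited. Bcl2l2 and Bax were listed at 0 at day 6.

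The order of the members by FPKM within a library was led by Mcl1 and Bax in both naive libraries. In NLRP3KO day 3 the highest were Mcl1, Bax and Bcl2, whose bounds all overlapped. In WT day 3 it was led by Bax at 11.4, Bcl2l1 at 8.93 and Bcl2 at 6.99, whose bounds all overlapped, and in WT day 6 by Bcl2 at 9.32, Bax at 7.32 and Mcl1 at 6.37, which overlapped too. In NLRP3KO day 6 the top 3, Bcl2, Mcl1 and Bcl2l1, could not be ordered. The summed FPKM of the pro-survival genes over that of the 6 death genes was 1.49 in naive NLRP3KO and 1.26 in naive WT, 1.72 in NLRP3KO day 3 and 1.22 in WT day 3, and 4.46 in NLRP3KO day 6 and 1.59 in WT day 6. The value of NLRP3KO day 6 rested on about 2 fragments of death genes.

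Cytokine receptors that feed this family stood at unlike levels in naive and cultured cells. Il7r, the receptor chain for the survival cytokine of naive cells, had FPKM of 75.3 in naive NLRP3KO and 60.6 in naive WT, 1.37 in NLRP3KO day 3 and 1.62 in WT day 3, and 0 in NLRP3KO day 6 and 0.579 in WT day 6. Il2ra, the inducible chain of the IL-2 receptor, had 12.3 in naive NLRP3KO and 5.97 in naive WT, 43.2 in NLRP3KO day 3 and 24.0 in WT day 3, and 21.6 in NLRP3KO day 6 and 23.4 in WT day 6. Of the 6 receptors, 3 were at least 2-fold higher at day 3 than in naive cells in each genotype, Il2ra, Il2rb and Il4ra, where 10.8% of all genes kept were in NLRP3KO and 9.99% in WT. As deposited, Il2rb was lower at day 3, with 26.4 against 35.1 in NLRP3KO and 13.0 against 17.0 in WT, and so was Il4ra, with 11.9 against 38.6 in NLRP3KO and 12.7 against 24.4 in WT. On the scaled values Il7r and Il2rg were at least 2-fold lower in both, and Il6ra in WT, where 32.1% of all genes kept were lower in NLRP3KO and 31.3% in WT. Between genotypes at day 3, 1 of 6 was at least 2-fold higher in NLRP3KO (Il6ra, on about 5 fragments against 2) and 0 were lower. Of all genes kept there, 25.4% were higher and 27.2% lower. Il2ra had bounds apart and higher at day 3, as in 1.33% of 3773 genes, with a log2 difference of 0.66. In naive cells Il2ra also had bounds apart and higher in NLRP3KO (0.44), as did Il2rb (0.54), while Il6ra had bounds apart and lower (-0.77). There, bounds stood apart and higher in 6.31% of 9852 genes and apart and lower in 8.78%.

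Of 10 transcription factors known to act on these genes, 1 was at least 2-fold higher in NLRP3KO day 3 than in WT day 3 and 3 were lower, where 25.4% of all genes kept were higher and 27.2% lower. Stat3, which acts downstream of several cytokine receptors, had FPKM of 10.2 in NLRP3KO day 3 and 2.29 in WT day 3. Its log2 difference was 1.77, with bounds apart and higher, as in 1.33% of 3773 genes. In naive cells it had 30.7 in NLRP3KO and 20.4 in WT, and at day 6 it had 1.80 in NLRP3KO, from under 1 fragment, and 4.14 in WT. Trp53, the gene of p53, was listed at 0 in both NLRP3KO Th2 libraries, against 5.09 in WT day 3 and 4.36 in WT day 6. The WT values rested on 4.18 fragments at day 3 and 3.34 at day 6. On Trp53, 3 fragments would have given 4.64 in NLRP3KO day 3 and 17.0 in NLRP3KO day 6, so the day 6 value of 0 is not informative. Foxo1, a factor of the resting state, had 48.3 in naive NLRP3KO and 41.8 in naive WT, with 2.72 in NLRP3KO day 3 and 2.14 in WT day 3, and was at least 2-fold lower at day 3 than in naive cells in both genotypes.

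The other lists of the death machinery held genes in both directions at day 3, on few fragments, and their counts stand against the same 25.4% higher and 27.2% lower over all genes kept. Of 8 apoptosome and executioner genes kept, 2 were at least 2-fold above WT and 2 below, with a median log2 difference of 0.00091. Of 6 death receptor genes kept, 3 were higher and 2 lower, with a median of 0.36. Casp8, the initiator caspase of this pathway, had 3.71 in NLRP3KO day 3 and 0.730 in WT day 3, on 3.54 fragments in NLRP3KO and 0.885 in WT. Of 3 Mcl1 turnover genes kept, 1 was higher and 0 lower. The higher one was Fbxw7, part of a ligase that marks MCL1 for degradation, with 2.14 in NLRP3KO day 3 on 3.44 fragments, and listed at 0 in WT day 3. Huwe1, another such ligase, had 2.62 in NLRP3KO day 3 and 2.97 in WT day 3, and Usp9x, a deubiquitinase that stabilizes MCL1, had 2.15 in NLRP3KO day 3 and 0.845 in WT day 3. Of 12 further BCL2 family genes 2 were kept, Bcl2a1b and Pmaip1. Pmaip1 was named after its values were seen. Both were listed at 0 in WT day 3, with 3.40 and 3.35 in NLRP3KO day 3 on 1.23 and 4.23 fragments. They were kept only through their NLRP3KO values, so the direction they share was set by the filter. In WT day 3, 3 fragments would have given 6.50 for Bcl2a1b, above its NLRP3KO value, and 1.87 for Pmaip1, below its NLRP3KO value. Bcl2a1b has near-identical copies, so its value is uncertain.

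Over the 6 libraries and 770 genes (FPKM 5 or more in 3 of them, above 0 in all), the profile of Mcl1 on scaled values was most like those of Fam102a (Pearson r 0.958), Trpc4ap (0.948) and Trp53inp1 (0.940). Fam102a had FPKM of 57.1 in naive NLRP3KO and 35.0 in naive WT, 10.3 in NLRP3KO day 3 and 2.44 in WT day 3, and 5.68 in NLRP3KO day 6 and 2.62 in WT day 6. Bcl2 was most like Pgam1 (0.988), Ccnd2 (0.986) and Rnu12 (0.985). These are descriptions over 6 single libraries that share 2 library kinds and differ in depth.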

How the data were processed

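Per the file headers, the tables the authors deposited give each entry an FPKM value, its lower and upper bounds and a status, and no counts. The submitters' processing notes name TopHat, Cufflinks and mm9. Versions and annotation were not given in the sources used here. Per the labels' protocols, RNA came from 300000 cells, 1 µg was used, and libraries were amplified for 12 PCR cycles to about 300 bp.

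Each table held 23700 entries, and the 285 marked as low in data were dropped. FPKM were scaled by the median ratio over 1059 genes, those with FPKM 1 or more in every library. The deposited FPKM were divided by 4.08 for naive NLRP3KO, 3.05 for naive WT, 0.562 for NLRP3KO day 3, 0.496 for WT day 3, 0.617 for NLRP3KO day 6 and 0.548 for WT day 6. A pseudocount of 1 was added before taking log2, which understates differences of low genes. Because the unit is FPKM, count models were not run, and a comparison of 2 libraries has no test. Genotype over the 3 stages was tested with limma on log2 values, with stage as a block and an intensity trend, over genes with FPKM 1 or more in any library and with Benjamini-Hochberg adjustment. This test was added after seeing the data.

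Fragments were inferred from the bounds, which are whole multiples of what 1 fragment is worth for 7 members within 0.02 of a step. Bcl2, Bcl2l11 and Bad gave no whole steps, so their fragments come from the width of the bounds and are less certain. Bax gave whole steps, but its naive FPKM lay off the centre of its bounds, so its fragments are less certain too. Intervals are exact (Clopper-Pearson) at 95% and cover counting error only. The 2-fold calls and the recovery of fragments were tested on counts simulated with counting error alone, and the limma fit on simulated normal noise. Such data follow the models assumed here, so these tests do not show how the steps fare on the deposited values. Bounds apart means that scaled bounds did not overlap, among genes above 0 in both libraries. An exact 0 may be a failed estimate and is called listed at 0.

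The members and lists were chosen with earlier results of these data known. Of each further list, those reaching FPKM 5 in any library could be named, at most 6 by highest FPKM. BH3 windows came from GENCODE transcripts on GRCm38, matched by symbol for all 10 members. Python 3.11.15, pandas 2.3.3, NumPy 2.4.6, SciPy 1.17.1, matplotlib 3.10.9, R 4.3.3 and limma 3.58.1 were used.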

Additional observations from a re-analysis of the deposited data

Results flagged for a closer look

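Mcl1 and Bcl2l1 took opposite signs under the same contrast in 4 settings, each with at least 3 estimated fragments in every library and a 2-fold difference on 1 side. These differences between contrasts were not tested. For NLRP3KO against WT, Mcl1 had a log2 difference of 1.90 at day 3 and -0.0098 in naive cells, and Bcl2l1 one of -1.01 at day 3 and 0.10 in naive cells, so both of the naive values were close to 0. For day 3 against naive, Mcl1 had 0.49 in NLRP3KO and -1.41 in WT. As deposited, Mcl1 had 0.41 in naive cells, and for day 3 against naive -2.29 in NLRP3KO, so these 2 opposite signs were lost. The first was also lost with scaling by fragments (0.086), and the second with upper quartile scaling (-0.070). For day 6 against day 3, Mcl1 had -1.07 in NLRP3KO and 0.49 in WT. The contrasts that share the NLRP3KO day 3 and WT day 3 libraries are not independent, and 14 pairs of contrasts were looked at.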

How the results depend on the processing

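With stage as a block, limma called 0 genes between genotypes, and 0 also without each stage in turn and with FPKM as deposited (unadjusted p under 0.05: 138 genes, range 31 to 304). Mcl1 was 0.16 without day 3. No pairing by replicate number was possible because each group is a single library. The Mcl1 log2 difference at day 3 ranged from 1.88 to 2.01 over 7 alternatives, and that of Bcl2 in naive cells from -0.68 to -0.26. A change of minimum FPKM decides only which genes are kept and cannot move a log2 difference, so fewer than 7 alternatives could widen these ranges. With FPKM as deposited, the median of all genes moved by -2.23 for NLRP3KO day 3 against naive, -1.95 for WT day 3 against naive and 0.38 between naive genotypes, against 0.13 or less elsewhere. Then 3 members were called at day 3, 8 in each comparison of day 3 with naive and 2 for NLRP3KO day 6 against day 3. For day 3 against naive, signs turned for Bcl2 (-1.31) and Bax (-1.94) in WT and for Bcl2 (-0.39), Bcl2l1 (-0.028), Mcl1 (-2.29), Bax (-1.14) and Bak1 (-2.03) in NLRP3KO. Smaller values turned too, 5 as deposited, among them naive Mcl1 (0.41), Bcl2l11 (0.29) and Bbc3 (0.24) between genotypes, 6 with scaling by fragments and 6 with upper quartile scaling, among them Mcl1 (-0.070) and Bak1 (-0.034) for NLRP3KO day 3 against naive and Mcl1 (-0.48) and Bcl2l1 (-0.66) between genotypes at day 6. A minimum FPKM of 5 left 2 members called between genotypes at day 3, 1 at day 6, 3 for NLRP3KO day 3 against naive, 2 for NLRP3KO day 6 against day 3 and 0 for WT day 6 against day 3. With no minimum the last was 2. A pseudocount of 0.1 and upper quartile scaling each gave 8 for NLRP3KO day 3 against naive. Upper quartile scaling moved the median by -0.71 and scaling by fragments by 0.47 between genotypes at day 6. The other 37 counts stayed within 1.5 times. Scaling over genes with FPKM 1 or more in the 5 deeper libraries was chosen after seeing the data. These genes also had to be above 0 in NLRP3KO day 6, so this setting does not show what leaving out that library would do. Depth limits every Th2 value of a BH3-only gene.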
